A study of Arabidopsis thaliana with 12 samples.

Results

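PIF1 (also called PIL5, At2g20180), PIF3 (At1g09530) and PIF5 (also called PIL6, At3g59060) encode phytochrome-interacting factors, basic helix-loop-helix (bHLH) transcription factors of Arabidopsis thaliana. The 3 genes were chosen by locus out of 14580 with a name on the Affymetrix ATH1 array, and each has 1 probe set among the 22746 tested. The study asked which genes depend on light signalling, on brassinosteroid (BR) signalling or on both, and profiled RNA from whole seedlings that were 7 days old and had been kept under continuous red light. The seedlings were phyB-77 (listed in the labels as gul2-1), bri1-5, the double mutant phyB-77 bri1-5 and wild-type Ws-2, with 3 arrays each. All mutants are in the Ws-2 background. phyB-77 came from chemical mutagenesis and carries a premature stop codon in PHYB, the main red light receptor. bri1-5 is a weak allele of BRI1, the BR receptor, so that some BR signalling is retained. Each mutant was represented by 1 allele.

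In darkness PIF proteins accumulate and keep seedlings in the dark-grown form, with long hypocotyls and unexpanded cotyledons. Red light converts phytochromes to the active form, which enters the nucleus, binds the PIFs and marks them for degradation, so that PIF protein is low in light even where the genes are transcribed. The family members divide the work: PIF1 is the main repressor of germination in imbibed seeds and holds back chlorophyll synthesis, PIF3 restrains greening and chloroplast development, and PIF5, with its close relative PIF4, drives elongation growth in shade and at night. BR signalling meets this pathway at the transcription factor BZR1, which forms dimers with PIF4 on shared growth genes. The arrays measured RNA only, and protein was not analysed here.

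The values are log2 signals. Array medians over the probe sets tested lay between 5.87 and 5.99, arrays of 1 genotype correlated at r = 0.993 to 0.998 and arrays of different genotypes at 0.969 to 0.988. No array stood apart and no 2 arrays were identical. The labels call the replicates biological but do not say that the seedlings were grown separately, so a p-value here reflects the spread from array to array, which may be technical. The probe sets of the 3 PIF genes could be named only through the study's supplementary tables. Most of these list genes that changed in these same samples, so a call of a PIF gene is not independent evidence of change. The tables are called the study's lists of changed genes here, although the first of them is described as the complete data. PHYB and BRI1 had no probe set with a gene name here, so the mutated genes were not checked by gene. RNA came from whole seedlings, in which fewer cells of a type and less RNA per cell cannot be told apart. A probe set was called where limma's moderated test gave an adjusted p below 0.01, after Benjamini-Hochberg correction for all 22746 probe sets.

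The 3 PIF genes followed 3 different patterns over the genotypes. PIF1 RNA rose 2.00-fold in either single mutant, and in the double mutant it lay between these and the wild type. PIF3 RNA rose in every mutant, by 1.63-fold to 1.79-fold. PIF5 RNA rose 2.20-fold in bri1-5 seedlings and was not called in the other mutants. Its level in bri1-5 was also above that of phyB-77 and of the double mutant when these were tested directly.

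**Figure D1:**
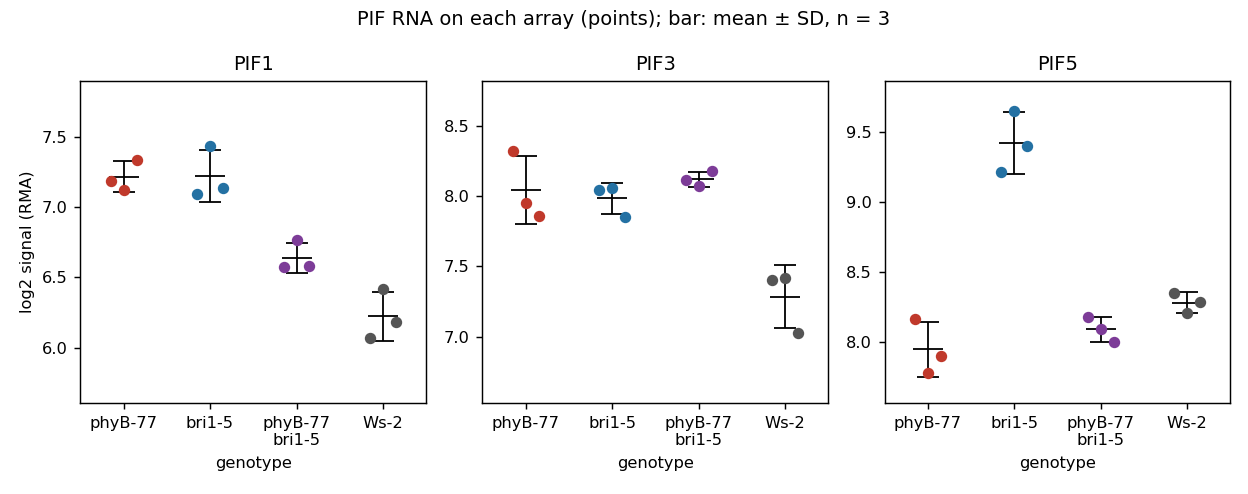
Log2 RMA signal (vertical axis, the same span of log2 units in each panel) of PIF1, PIF3 and PIF5 on every array of the single mutants, the double mutant and Ws-2, with the mean and SD of 3 arrays as bars. PIF1 is high in both single mutants, PIF3 is high in all mutants, and PIF5 is high in bri1-5, where its arrays lie between 9.21 and 9.65.

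PIF1 read 7.19, 7.13 and 7.34 log2 units in phyB-77 seedlings and 7.10, 7.44 and 7.14 in bri1-5 seedlings. In phyB-77 bri1-5 seedlings it read 6.58, 6.77 and 6.58, and in Ws-2 seedlings 6.07, 6.42 and 6.18. The arrays of the single mutants overlapped each other and lay above all double mutant arrays, which in turn lay above all Ws-2 arrays. The means were 7.22 ± 0.11 (phyB-77), 7.22 ± 0.19 (bri1-5), 6.64 ± 0.11 (double mutant) and 6.22 ± 0.18 (Ws-2; SD, n = 3 each).

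PIF1 rose by 1.00 on the log2 scale in phyB-77 against Ws-2 (95% interval 0.76 to 1.23, adjusted p = 2.1e-06), which is a 2.00-fold change. Of all probe sets, 15.3% were called in this comparison, 8.56% higher and 6.77% lower, 19.7% had all mutant arrays above all Ws-2 arrays, and 2.71% had a larger change than PIF1. With arrays centred on their medians, the called shares were 6.96% higher and 8.72% lower. In bri1-5 against Ws-2 the rise of PIF1 was 1.00 as well (0.77 to 1.24, adjusted p = 2.3e-06), with 19.1% of probe sets called (10.5% higher, 8.61% lower). In bri1-5, 20.2% had all mutant arrays on the upper side, and 2.27% changed more than PIF1. The single mutants differed from each other by -0.01 (phyB-77 minus bri1-5, -0.24 to 0.23, adjusted p = 0.98).

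The double mutant did not hold the level of either parent. PIF1 was lower in phyB-77 bri1-5 than in bri1-5 by a log2 fold change of -0.58 (-0.82 to -0.35, adjusted p = 6.5e-04), a comparison in which 19.4% of probe sets were called, 11.6% lower, and 25.3% had all arrays on the lower side. Against phyB-77 the log2 fold change of PIF1 was -0.58 too (-0.81 to -0.34, adjusted p = 8.4e-04), with 16.0% of probe sets called, 9.51% lower, and 25.9% with all arrays on the lower side. These calls ended when a fold change above 1.5 was asked for in addition. With median centring the share of calls that were higher in the double mutant than in phyB-77 was 53.9%, against 40.4% without it.

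Against Ws-2, the double mutant stood 0.42 log2 units higher in PIF1 (0.18 to 0.66, a 1.34-fold difference) with an adjusted p of 0.0104, just outside the threshold. In that comparison 14.6% of probe sets were called (6.55% higher, 8.01% lower), and 18.9% had all mutant arrays above all Ws-2 arrays, as PIF1 did. Leaving out 1 array at a time gave 0.34 to 0.52, and the value passed the threshold without bri1-5 replicate 2 (0.42), bri1-5 replicate 3 (0.42) or Ws-2 replicate 2 (0.52).

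PIF3, the family member through which the binding of phytochrome to a transcription factor was first found, read 8.32, 7.96 and 7.86 log2 units in phyB-77 seedlings and 8.05, 8.06 and 7.86 in bri1-5 seedlings. The phyB-77 bri1-5 arrays gave 8.11, 8.07 and 8.18, and the Ws-2 arrays 7.41, 7.42 and 7.02. Every mutant array lay above every Ws-2 array. Taken 1 mutant at a time, 19.7% (phyB-77), 20.2% (bri1-5) and 18.9% (double mutant) of all probe sets had all mutant arrays above all Ws-2 arrays. Among the mutants, phyB-77 overlapped both other genotypes, whereas the lowest double mutant array, at 8.07, was just above the highest bri1-5 array, at 8.06, a position that 16.4% of all probe sets shared. The means were 8.05 ± 0.24 (phyB-77), 7.99 ± 0.11 (bri1-5), 8.12 ± 0.06 (double mutant) and 7.28 ± 0.23 (Ws-2; SD, n = 3 each).

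Against Ws-2, PIF3 rose by 0.76 on the log2 scale in phyB-77 (0.50 to 1.02, adjusted p = 1.4e-04), by 0.70 in bri1-5 (0.44 to 0.96, adjusted p = 2.7e-04) and by 0.84 in the double mutant (SE 0.12, adjusted p = 5.4e-05). In fold terms these were 1.70, 1.63 and 1.79. Of all probe sets, 8.56% (phyB-77), 10.5% (bri1-5) and 6.55% (double mutant) were called higher. Between 3.61% and 6.19% of probe sets had a larger change than PIF3 in these comparisons. All 3 calls held in each of the 12 fits that left out 1 array, with values from 0.57 to 0.91.

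No difference in PIF3 between mutants was called. The double mutant differed from bri1-5 by 0.14 (-0.13 to 0.40, adjusted p = 0.47) and from phyB-77 by 0.08 (-0.19 to 0.34, adjusted p = 0.73). phyB-77 differed from bri1-5 by 0.06 (-0.20 to 0.32, adjusted p = 0.75), in a comparison in which 26.7% of all probe sets were called. The intervals leave room for differences between mutants of up to 0.40 log2 units.

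PIF5 read 8.17, 7.78 and 7.90 log2 units in phyB-77 seedlings and 9.21, 9.65 and 9.40 in bri1-5 seedlings. In phyB-77 bri1-5 seedlings it read 8.18, 8.09 and 8.01, and in Ws-2 seedlings 8.35, 8.21 and 8.29. The bri1-5 arrays lay well above all others. The lowest of them exceeded the highest array of any other genotype, and phyB-77 and double mutant arrays overlapped each other and lay below all Ws-2 arrays. The means were 7.95 ± 0.20 (phyB-77), 9.42 ± 0.22 (bri1-5), 8.09 ± 0.09 (double mutant) and 8.28 ± 0.07 (Ws-2; SD, n = 3 each).

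PIF5 rose by 1.14 on the log2 scale in bri1-5 against Ws-2 (0.89 to 1.38, adjusted p = 7.3e-07), a 2.20-fold change that 1.46% of probe sets exceeded. In that comparison 10.5% of probe sets were called higher, and 20.2% had all bri1-5 arrays above all Ws-2 arrays. For phyB-77 against Ws-2 the log2 difference was -0.33 (-0.58 to -0.09, adjusted p = 0.044) and for the double mutant against Ws-2 it was -0.19 (-0.44 to 0.05, adjusted p = 0.28). Neither was called, although all arrays of both genotypes lay below all Ws-2 arrays, a position that 16.7% and 24.5% of all probe sets shared in these comparisons.

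The double mutant did not have the PIF5 level of bri1-5. PIF5 fell by 1.33 on the log2 scale in phyB-77 bri1-5 against bri1-5 (-1.57 to -1.09, adjusted p = 7.8e-08), a 2.51-fold change that 1.33% of probe sets exceeded. Of all probe sets, 11.6% were called lower in that comparison, and 25.3% had all arrays on the lower side. Between the single mutants, the log2 fold change of PIF5 in phyB-77 against bri1-5 was -1.47 (-1.72 to -1.23, adjusted p = 1.0e-08), a 2.78-fold difference, and 13.2% of probe sets were called lower there, 21.0% with all arrays on the lower side. The double mutant and phyB-77 differed by 0.14 (-0.10 to 0.39, adjusted p = 0.43).

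**Figure D2:**
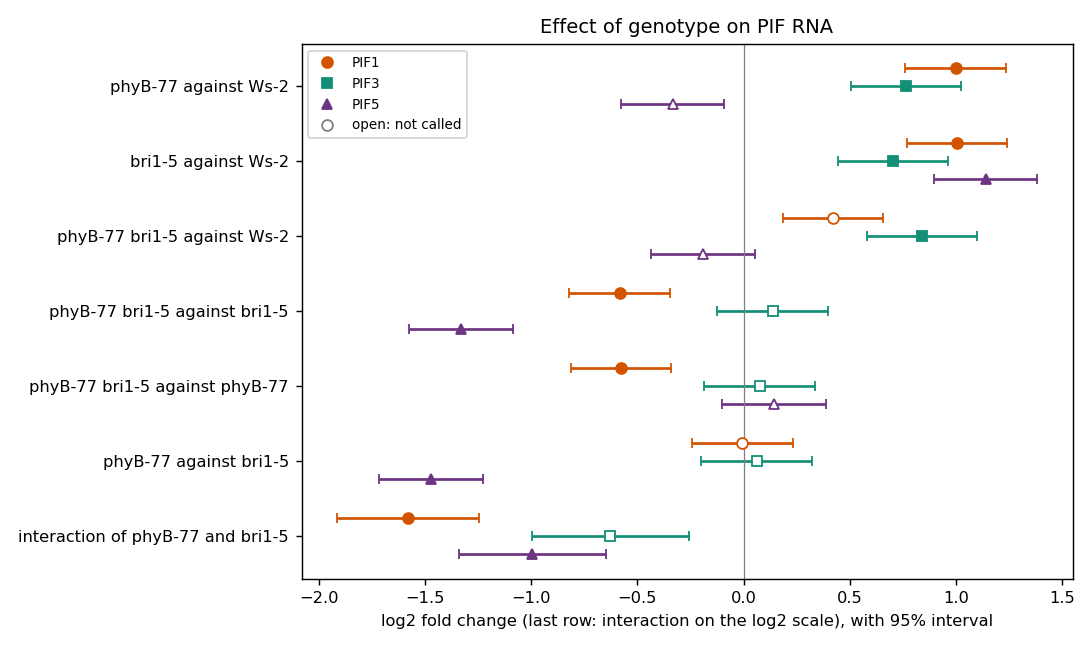
Log2 fold change with its 95% interval (horizontal axis) of PIF1, PIF3 and PIF5 in the 6 pairwise comparisons and, in the bottom row, the interaction, with filled symbols for calls at an adjusted p below 0.01. PIF3 lies to the right of 0 in each comparison with Ws-2, and PIF5 lies between -0.995 and -1.47 in the rows that set phyB-77 against bri1-5, the double mutant against bri1-5 and the interaction.

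Whether bri1-5 acted on a PIF gene alike with and without phyB-77 was tested as an interaction, the double mutant effect minus the sum of the single mutant effects on the log2 scale. For PIF1 the single mutant effects summed to 2.00 while the double mutant effect was 0.42, and the interaction was -1.58 (-1.92 to -1.25, SE 0.16, adjusted p = 1.5e-06). Only 0.563% of probe sets had a larger interaction. For PIF5 the sum was 0.80 and the double mutant effect -0.19, with an interaction of -0.995 (-1.34 to -0.65, SE 0.16, adjusted p = 2.4e-04).

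The interaction was called for 13.8% of all probe sets, and 8.93% were called negative. With median centring, 53.0% of the called interactions were positive, against 35.1% without it. In PIF1, bri1-5 gave a log2 difference of 1.00 in the PHYB background and of -0.58 in the phyB-77 background. For PIF5, bri1-5 gave 1.14 in the PHYB background and 0.14 in the phyB-77 background.

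For PIF3 the sum of the single mutant effects was 1.47 and the double mutant effect 0.84. Its interaction of -0.63 (-0.997 to -0.26, SE 0.18) had an adjusted p of 0.014 and was not called. The value was -0.72 without phyB-77 replicate 3 and -0.69 without bri1-5 replicate 3, and was called in both cases. The array medians themselves carried an interaction of -0.10 log2 units, and with arrays centred on their medians the interaction values were -1.48 for PIF1, -0.52 for PIF3 and -0.89 for PIF5, with PIF1 and PIF5 called.

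**Figure D3:**
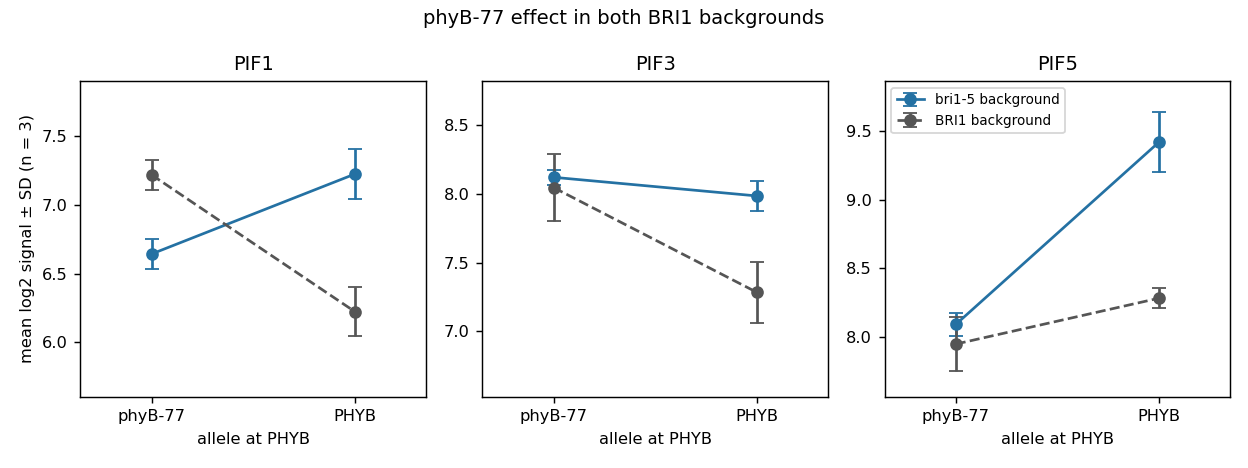
Mean log2 signal ± SD (n = 3; vertical axis, the same span in each panel) of each PIF gene by the state of PHYB and BRI1, with 1 line for each BRI1 state. The lines cross for PIF1, and in the phyB-77 background they lie 0.08 log2 units apart for PIF3 and 0.14 for PIF5, whose interaction was -0.995.

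The rest of the family was taken from a list of 13 PIF and related bHLH genes. 8 of them could be given a probe set: besides the 3 above, PIF6, HFR1, SPT, PAR1 and ALC. PIF4, PIF7, PIF8, PIL1 and PAR2 were not analysed by gene here. Of the 8, 5 were called higher and 0 lower in phyB-77, while the counts were 6 and 0 for bri1-5 and 5 and 0 for the double mutant, each against Ws-2. The median log2 fold changes of the 8 were 0.88, 0.83 and 0.68, against medians of 0.01, 0.01 and -0.02 over all probe sets. Over all probe sets, 8.56% were called higher and 6.77% lower in phyB-77, 10.5% and 8.61% in bri1-5, and 6.55% and 8.01% in the double mutant, and these shares and medians are those against which the counts of the lists that follow are to be read. Only 2 of the 8, SPT and ALC, were named by the array annotation. The other 6 were named through the study's tables, most of which list genes that changed in these same samples. Their counts are therefore not independent evidence of a direction, and naming of this kind favours called genes. Of the pair named by the annotation, 1 was called higher in phyB-77, 0 in bri1-5 and 1 in the double mutant.

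PIF6, a PIF gene known mainly from developing seeds, averaged 4.97 ± 0.19 (phyB-77), 4.35 ± 0.04 (bri1-5), 4.55 ± 0.08 (double mutant) and 3.92 ± 0.17 log2 units (Ws-2; SD, n = 3 each). PIF6 rose by 1.04 with phyB-77 (adjusted p = 5.9e-07), by 0.43 with bri1-5 (adjusted p = 0.0050) and by 0.63 with both (adjusted p = 2.2e-04). The call of PIF6 in bri1-5 was lost in 4 of 12 fits that left out 1 array: without bri1-5 replicate 1 or 2 and without Ws-2 replicate 2 or 3, over a range of 0.36 to 0.52. Like PIF1, it had a called interaction, of -0.84 (adjusted p = 5.4e-04).

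HFR1, an atypical bHLH protein that binds PIFs and keeps them from DNA, was highest in the double mutant. HFR1 averaged 8.00 ± 0.17 (phyB-77), 7.55 ± 0.21 (bri1-5), 9.07 ± 0.12 (double mutant) and 6.60 ± 0.04 log2 units (Ws-2; SD, n = 3 each), without overlap between genotypes. Of all probe sets, 19.7% (phyB-77), 20.2% (bri1-5) and 18.9% (double mutant) had all mutant arrays above all Ws-2 arrays. The log2 fold changes of HFR1 against Ws-2 were 1.40, 0.95 and 2.47, and its interaction was 0.12 (adjusted p = 0.65).

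PAR1, a second inhibitor of this kind, rose by 1.22 in bri1-5 and 1.29 in the double mutant, and the log2 difference for phyB-77 was -0.15 (adjusted p = 0.35). SPT (SPATULA), a repressor of cotyledon growth and of germination, rose by 1.21 in phyB-77 and 0.73 in the double mutant, with -0.11 for bri1-5 (adjusted p = 0.46). ALC (ALCATRAZ), known from fruit opening, was not called in any comparison, with log2 differences between 0.01 and 0.25 against Ws-2. Of the 8 family genes measured, only PIF5 was called higher in bri1-5 while it was called in neither of the genotypes with phyB-77.

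Of 27 proteins that bind PIFs or control their genes or stability, 6 could be given a probe set, 2 of them by the annotation. The calls were 5 up and 0 down for phyB-77, 3 up and 1 down for bri1-5, and 1 up and 0 down for the double mutant, beside 8.56%, 10.5% and 6.55% of all probe sets called higher. The other 4 genes were named through the study's lists of changed genes, which favours genes that are called. The pair named by the annotation gave 2, 1 and 1 up and 0 down. ELF3, an evening complex component that represses transcription of PIF4 and PIF5, rose by 0.81 in phyB-77 and 0.87 in bri1-5, stood at 0.35 in the double mutant (adjusted p = 0.019), and had an interaction of -1.34 (adjusted p = 3.0e-06). EIN3, an ethylene response factor that activates PIF3 transcription, rose by 0.49, 0.95 and 0.33, with an interaction of -1.10 (adjusted p = 4.8e-06). The EIN3 call in the double mutant was lost in 8 of 12 fits that left out 1 array (0.30 to 0.35): phyB-77 replicate 2 or 3, or any replicate of the double mutant or Ws-2. Its relative EIL1 rose by 0.81 in bri1-5, with -0.33 for phyB-77 (adjusted p = 0.012) and 0.26 in the double mutant (adjusted p = 0.045).

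HY5, a bZIP activator of light-grown development that opposes PIFs at shared promoters, rose by 0.89 in phyB-77, with -0.08 in bri1-5 and 0.19 in the double mutant. HYH, its homologue, rose by 0.61 in phyB-77 and was at 0.43 in bri1-5 (adjusted p = 0.013) and -0.13 in the double mutant. Interactions were -0.62 for HY5, a call lost with median centring, quantile normalisation or on leaving out bri1-5 replicate 1, double mutant replicate 2 or Ws-2 replicate 3, and -1.17 for HYH. RGL1, the DELLA protein gene with a named probe set here (DELLA proteins sequester PIFs), rose by 0.39 in phyB-77, fell by 0.98 in bri1-5 and stood at -0.18 in the double mutant. The call of RGL1 in phyB-77 was lost without phyB-77 replicate 1 or 3 or Ws-2 replicate 1 or 2 (range 0.33 to 0.45) and with median centring. Of 9 phytochromes and their partners only FHL, which helps to carry phytochrome A into the nucleus, could be given a probe set with the names used here. FHL was at 0.21 in each single mutant and rose by 0.71 in the double mutant, which was no longer called without double mutant replicate 3 or Ws-2 replicate 2 (range 0.63 to 0.84).

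**Figure D4:**
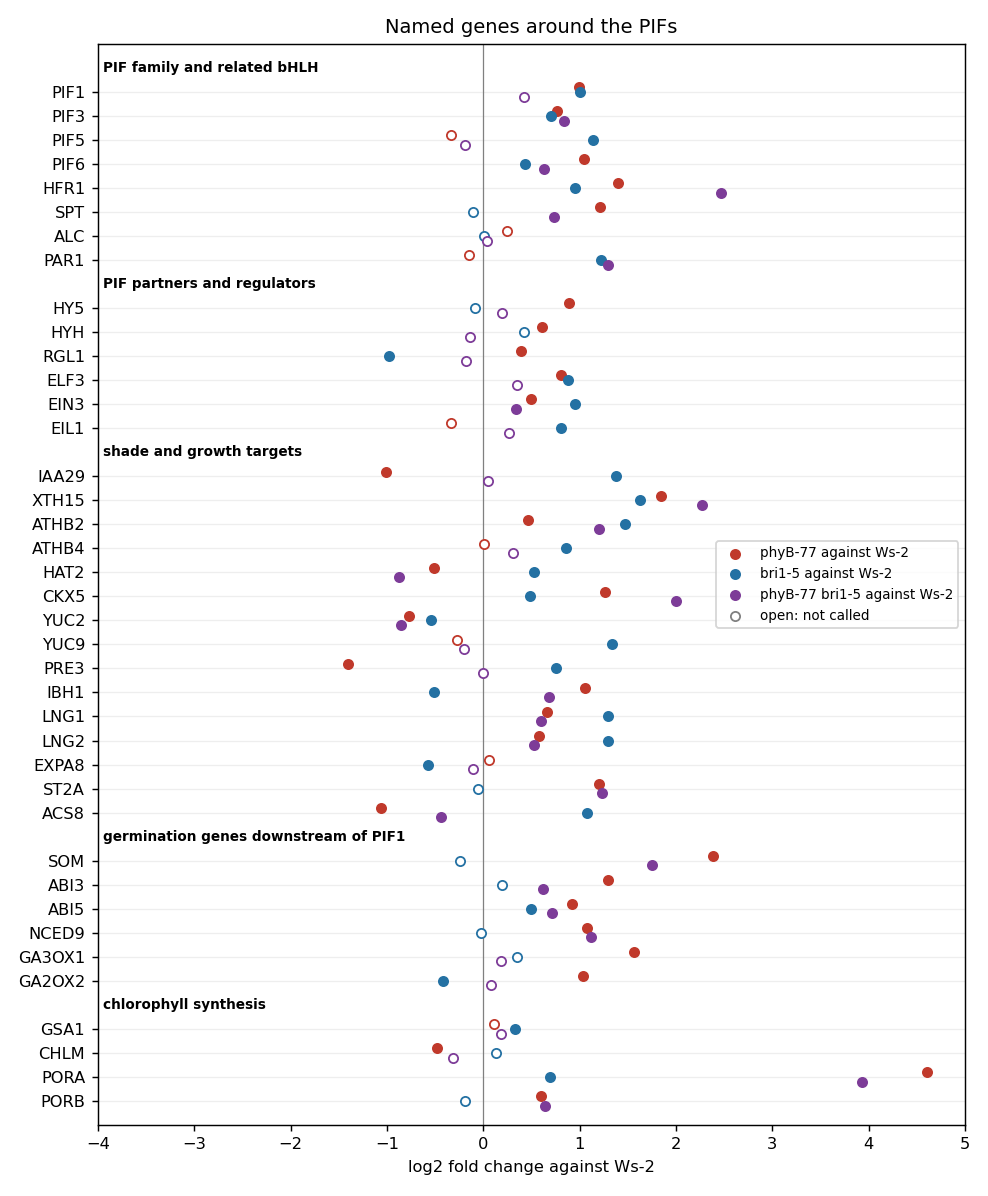
Log2 fold change of each mutant against Ws-2 (horizontal axis) for the named genes around the PIFs, grouped by list, with filled symbols for calls at an adjusted p below 0.01. PORA has the largest value plotted, 4.60 in phyB-77, and the germination genes lie to the right of 0 in phyB-77.

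Genes downstream of the PIFs were described by list. PIF1 acts in seeds through SOM, a zinc finger repressor of germination, through the abscisic acid response factors ABI3 and ABI5, and through enzymes of abscisic acid and gibberellin metabolism. Of 10 such genes 6 could be given a probe set, all of them through the study's tables. Most of these tables list genes that changed in these samples, so that the counts are no independent evidence. The list was not sorted by whether PIF1 raises or lowers a gene, and it holds enzymes that make and that inactivate gibberellin. For phyB-77 all 6 were called higher (median log2 fold change 1.19), beside 8.56% of all probe sets (median 0.01). For bri1-5 the calls were 1 up and 1 down (median 0.09), and for the double mutant 4 up and 0 down (median 0.67), beside 10.5% and 6.55% of all probe sets called higher.

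SOM averaged 8.88 ± 0.18 (phyB-77), 6.26 ± 0.23 (bri1-5), 8.25 ± 0.11 (double mutant) and 6.50 ± 0.29 log2 units (Ws-2; SD, n = 3 each). SOM rose by 2.38 in phyB-77 and 1.75 in the double mutant, with -0.24 for bri1-5 (adjusted p = 0.23). GA3OX1, which makes active gibberellin, rose by 1.57 in phyB-77, with 0.35 for bri1-5 (adjusted p = 0.034) and 0.19 for the double mutant (adjusted p = 0.30). ABI3 rose by 1.29 in phyB-77 and 0.62 in the double mutant, and ABI5 by 0.92 (phyB-77), 0.49 (bri1-5) and 0.71 (double mutant). NCED9, an abscisic acid synthesis gene, rose by 1.08 in phyB-77 and 1.12 in the double mutant, and was at -0.02 in bri1-5. Both ABI3 and NCED9 were dim, with genotype means of 3.89 to 5.18 and 3.61 to 4.75 log2 units, below the median of every array. The SD of NCED9 reached 0.42 in the double mutant. GA2OX2, which inactivates gibberellin, rose by 1.04 in phyB-77 and fell by 0.42 in bri1-5, a call that leaving out bri1-5 replicate 1 or 3 or Ws-2 replicate 1 or 3 ended (range -0.51 to -0.37).

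Seed marker genes moved in the same genotypes. The summed linear signal of 10 of 10 seed storage, oil body and late embryogenesis markers was 21116 to 21445 (phyB-77), 1803 to 1969 (bri1-5), 17573 to 18319 (double mutant) and 1827 to 1985 (Ws-2). The calls were 10 up and 0 down for phyB-77, 1 up and 5 down for bri1-5, and 9 up and 1 down for the double mutant, beside the shares of 8.56% higher and 6.77% lower (phyB-77), 10.5% and 8.61% (bri1-5) and 6.55% and 8.01% (double mutant) over all probe sets. Of the 10 markers, 3 were named by the annotation and the others through the study's lists of changed genes. The 3 were called 3 up and 0 down, 1 up and 2 down, and 3 up and 0 down. PIF1 averaged 7.22 in phyB-77 and 7.22 in bri1-5. The part of seed-type RNA in the rise of PIF1, PIF6 and the germination genes in phyB-77 was not tested. For root, 5 of 6 markers were measured with sums of 8858 to 10577 (phyB-77), 9772 to 10203 (bri1-5), 8519 to 9341 (double mutant) and 9384 to 10367 (Ws-2). Most of these sums is the signal of PYK10, a root beta-glucosidase, which averaged 13.04 (phyB-77), 13.03 (bri1-5), 12.89 (double mutant) and 12.98 log2 units (Ws-2). The root marker calls were 0 up and 4 down for phyB-77 (median log2 fold change -0.74), 3 up and 1 down for bri1-5 (median 0.83) and 0 up and 3 down for the double mutant (median -0.44). PYK10, not called in any mutant, was the 1 root marker named by the annotation. For green shoot 1 of 8 could be measured, the carbonic anhydrase gene CA1, which fell by 0.51 in phyB-77 and summed to 5552 to 6533 (phyB-77), 8204 to 9841 (bri1-5), 9048 to 9662 (double mutant) and 8224 to 9151 (Ws-2). The part of root or shoot RNA in the PIF values, PIF5 among them, was not tested either.

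Chlorophyll synthesis is held back by PIF1 and PIF3 in the dark. Of 13 genes of that list 4 could be given a probe set, 3 of them by the annotation. The calls were 2 up and 1 down for phyB-77, 2 up and 0 down for bri1-5, and 2 up and 0 down for the double mutant. PORA, the protochlorophyllide oxidoreductase of dark-grown seedlings, rose by 4.60 (phyB-77), 0.69 (bri1-5) and 3.93 (double mutant), with an interaction of -1.36 (adjusted p = 2.7e-06). PORB, the enzyme that acts in both dark and light, rose by 0.60 in phyB-77 and 0.64 in the double mutant, and CHLM, a methyltransferase of the pathway, fell by 0.48 in phyB-77. GSA1, which acts at an early step, was called in bri1-5 (0.33), a call lost in 10 of 12 fits that left out 1 array, all but those without phyB-77 replicate 1 or bri1-5 replicate 1 (range 0.28 to 0.42), and also when arrays were median centred (0.30) or weighted (0.28), with a replicate block (adjusted p = 0.014), in a fit of the compared arrays alone (adjusted p = 0.038) and with the added fold threshold. Of 4 genes of PIF-driven leaf senescence, NYC1, a chlorophyll b reductase, could be given a probe set through the study's lists and fell by 0.68 in bri1-5.

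The list of shade and growth genes held 26 genes and was not sorted by whether PIF4 and PIF5 raise or lower a gene. Of the 26, 15 could be given a probe set, 4 of them by the annotation and 11 through the study's lists of changed genes. The calls were 7 up and 5 down for phyB-77, 11 up and 3 down for bri1-5, and 7 up and 3 down for the double mutant. The medians were 0.06, 0.85 and 0.30. For the 4 genes named by the annotation the calls were 0 up and 3 down, 2 up and 2 down, and 0 up and 2 down, with medians of -0.64, -0.01 and -0.48. Over all probe sets, 8.56% were called higher and 6.77% lower in phyB-77, 10.5% and 8.61% in bri1-5, and 6.55% and 8.01% in the double mutant. ATHB2, a homeobox gene that marks shade responses, rose by 0.46 (phyB-77), 1.47 (bri1-5) and 1.20 (double mutant). Its call in phyB-77 was lost without phyB-77 replicate 1 or Ws-2 replicate 2 (range 0.40 to 0.52). XTH15, a cell wall xyloglucan enzyme, rose in all 3 by 1.84, 1.62 and 2.26.

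PRE3, a small bHLH protein that promotes elongation, differed in sign between the single mutants: it fell by 1.41 in phyB-77 and rose by 0.75 in bri1-5, and the double mutant differed from Ws-2 by 0.00 (adjusted p = 1.00). LNG1, which directs cell elongation along the organ axis, averaged 6.44 ± 0.08 (phyB-77), 7.08 ± 0.07 (bri1-5), 6.38 ± 0.13 (double mutant) and 5.78 ± 0.19 log2 units (Ws-2; SD, n = 3 each), called higher in each mutant, with an interaction of -1.36 (adjusted p = 3.2e-06). CKX5, a cytokinin oxidase, rose by 1.26, 0.49 and 2.00. Its call in bri1-5 was lost without bri1-5 replicate 3 or any Ws-2 replicate (range 0.31 to 0.58). ST2A, a sulfotransferase of the jasmonate pathway, rose by 1.20 in phyB-77 and 1.24 in the double mutant, with -0.05 in bri1-5.

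The named probe sets whose signal was most like that of each PIF gene over the 12 arrays were listed by Pearson's r among 14730 probe sets with 1 gene name. The arrays come from 4 genotypes, so r mostly compares 4 means, and it is given as a description. Over all probe sets tested, 38 had r above 0.9 with PIF1, 27 with PIF3 and 259 with PIF5.

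The 5 most like PIF1 were AT1G16210 (r = 0.963), the histone chaperone gene NAP1;2 (0.962), PDS1 (0.954), an enzyme of tocopherol and plastoquinone synthesis, ELF3 (0.948) and the nucleoporin gene MOS7 (0.943). Their log2 differences from Ws-2 were 0.49 to 0.87 in the single mutants and 0.12 to 0.35 in the double mutant, the order seen for PIF1.

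For PIF3 they were UGT85A4 (0.946), AT5G66080 (0.941), AT1G77840 (0.938), ORP4C (0.931) and CYP707A3 (0.930). CYP707A3 breaks down abscisic acid and differed from Ws-2 by 0.99 (phyB-77), 0.78 (bri1-5) and 1.13 log2 units (double mutant).

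For PIF5 they were AT2G41250 (0.980), AT5G05250 (0.979), BEE2 (0.978), RGF3 (0.976) and AT3G10720 (0.973). BEE2 encodes a bHLH protein of BR-responsive growth and differed from Ws-2 by -0.37 (phyB-77), 0.97 (bri1-5) and -0.15 (double mutant), and AT5G05250 by -0.55, 1.75 and -0.16. With median centring or quantile normalisation, 3 to 5 of each set of 5 stayed among the first 5.

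**Figure D5:**
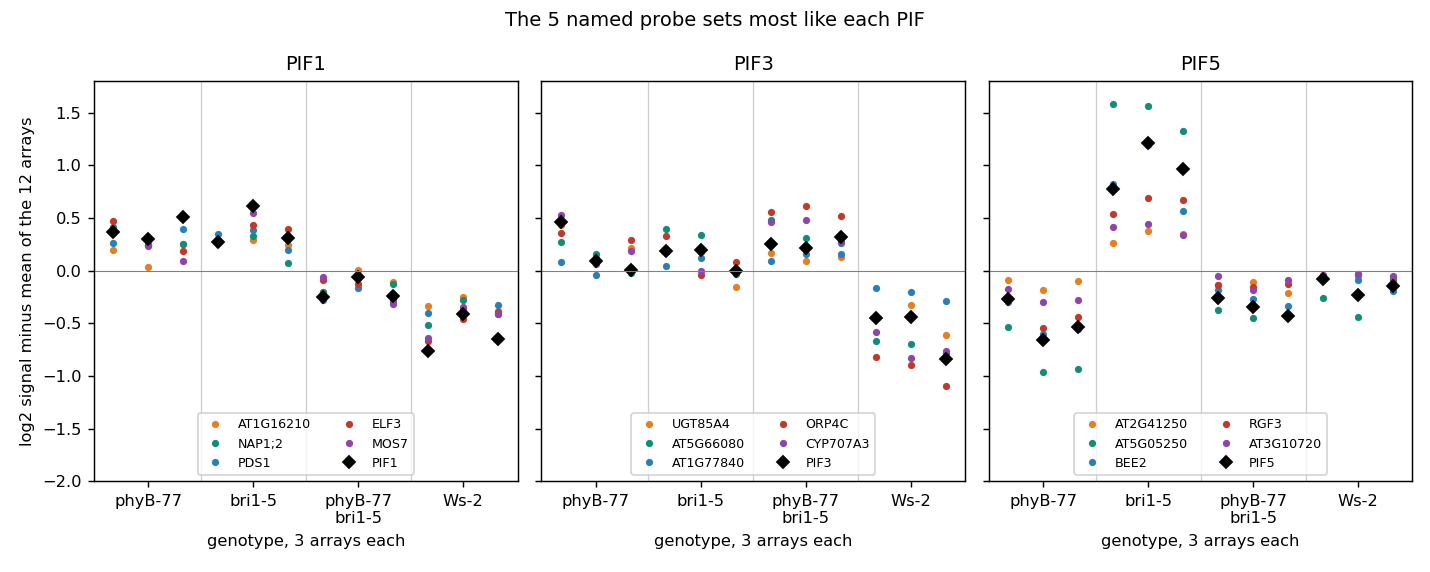
Log2 signal minus the mean of the 12 arrays (vertical axis) of each PIF gene (black diamonds) and its 5 most similar named probe sets (coloured points) on the 3 arrays of each genotype. The PIF1 set is above 0 in the single mutants, the PIF3 set is lowest in Ws-2 and the PIF5 set is highest in bri1-5, where AT5G05250 differs from Ws-2 by 1.75.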

How the data were processed

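RNA from 12 samples (4 genotypes, 3 arrays each) was measured on Affymetrix ATH1 arrays. The deposited table holds log2 signals that the authors made with RMA (per the labels, no version given), which summarises and normalises probes over all arrays. Its software is not given in the sources used here. The file holds 22810 probe sets, of which 64 controls were left out. Gene names came from the platform annotation (13513 probe sets) or the study's lists of changed genes (1295), among them all 3 PIF genes. 503 probe sets had several names and 7435 none. The lists contain genes chosen on these samples, apart from the table described as the complete data, and the table behind each name was not recorded.

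Each probe set was fitted with 1 mean per genotype over all 12 arrays in limma 3.58.1 (R 4.3.3), with 8 residual degrees of freedom and two-sided moderated tests. P-values were corrected over all probe sets of a comparison and called below 0.01, with no limit on the fold change. The script was tested on simulated data. The 3 genes, the gene lists and the tests were chosen with earlier results of these data known. Named were the 3 genes, every measured gene of the family and regulator lists, up to 6 genes of each other list by smallest adjusted p, and the 5 probe sets most like each PIF gene. The number of arrays limits precision: the median SE against Ws-2 was 0.10. Replicate numbers did not pair the arrays. Alternatives varied scaling, filter, threshold, model and the arrays used.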

Additional observations from a re-analysis of the deposited data

Results flagged for a closer look

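PIF1 differed between genotypes in its response to bri1-5: the effect was 1.00 log2 units in the PHYB background and -0.58 in the phyB-77 background, an interaction of -1.58 (adjusted p = 1.5e-06, limma). PIF5 likewise responded to bri1-5 by 1.14 with PHYB and by 0.14 without it, an interaction of -0.995 (adjusted p = 2.4e-04). With 3 arrays per genotype, single outlying arrays were not tested for.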

How the results depend on the processing

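Of 480 results for the 3 PIF genes under the alternatives, 450 kept their direction and side of the threshold, and no called PIF value changed sign. PIF1 in the double mutant against Ws-2, just outside the threshold, became called with median centring (0.43), quantile normalisation (0.43), array weights (0.39) and, at 0.42, with an adjusted p below 0.05, without the dimmest 40% of probe sets, with 1 probe set per gene, with a robust variance trend, in a fit of the compared arrays and with the replicate number as a block. Leaving out 1 array gave 0.34 to 0.52. The PIF3 interaction became called at -0.63 with an adjusted p below 0.05, without the dimmest probe sets, with the robust trend and with the replicate block, and ran between -0.72 and -0.49 without 1 array. PIF5 in phyB-77 became called at 0.05 (-0.33) and with array weights (-0.37). Asking for a fold change above 1.5 ended the call of PIF1 in the double mutant against bri1-5 (-0.58) and against phyB-77 (-0.58).

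Uncalled differences near 0 changed sign. phyB-77 against bri1-5 gave 0.048 for PIF1 and -0.043 for PIF3 with array weights, and -0.070 to 0.10 and -0.077 to 0.15 without 1 array. PIF3 in the double mutant against phyB-77 ran between -0.017 and 0.21. For ALC in bri1-5 it was -0.032 with median centring, -0.040 with quantile normalisation and -0.092 to 0.13 without 1 array, and in the double mutant -0.027 to 0.12. Without 1 array, bri1-5 gave -0.14 to 0.012 for ST2A and -0.12 to 0.15 for NCED9, the double mutant -0.034 to 0.019 for PRE3, and the interaction -0.011 to 0.083 for CHLM and -0.14 to 0.28 for NCED9. Of 2619 results for the other listed genes, 2480 kept their direction and side of the threshold, whether called or not. A call was lost in 93 and gained in 29, and 17 changed sign, of which 0 had been called. The causes were not tested.

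An adjusted p below 0.05 in place of 0.01 raised the called probe sets to 5345 (phyB-77, 3487 before), 5157 (double mutant, 3311 before), 6625 (double mutant against bri1-5, 4414 before), 5716 (double mutant against phyB-77, 3628 before) and 5140 (interaction, 3128 before). The added fold threshold lowered the counts to 1771 (phyB-77), 2158 (bri1-5, 4352 before) and 1710 (double mutant), each against Ws-2, and for the other comparisons to 2168, 1705 and 3133. With array weights, 5191 were called in the double mutant against Ws-2. Same-numbered arrays correlated at r = -0.19 to 0.08 in their deviations from the genotype means (18 pairs), and 1 of 12 arrays was most like an array of its own number, so the numbers do not pair the arrays, and the block changed no other PIF call. Precision is limited by 3 arrays per genotype.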
